A study of Drosophila melanogaster with 20 samples.

Results

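Of the 6947 upstream rows that the study listed for genes differentially expressed in rasV12scrib1 mosaic eye/antennal discs (EAD), 715 (10.3%) were left without a first intron. These start sites are described here by position. Members were found by matching the list of first introns, row by row in file order, to the list of upstream regions. Each intron took the first later upstream row on its chromosome, among the next 60, whose region ended less than 20 kb before the intron or began less than 20 kb after it. Rows that no intron took were the members. They fell on 691 distinct regions out of 4926 in the whole list (14.0%, 95% Wilson confidence interval 13.1 to 15.0%), and the other 4235 regions are the comparison throughout.

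The lists rest on the comparison of rasV12scrib1 (4 samples) with control, labeled FRT82B (4 samples), out of 20 RNA-seq samples of 6 genotypes. All were *Drosophila melanogaster* larvae raised at 25 °C. In both groups clones were made with the MARCM system, in which FLP recombinase under an *eyeless* driver makes GFP-marked cells homozygous for the arm that carries FRT82B. The rasV12scrib1 clones carried the scrib1 mutation of the polarity gene *scribble* and expressed the activated oncogene RasV12 under GAL4 control, whereas control clones were normal. Each disc therefore mixed clonal and non-clonal cells, and total RNA of the whole tissue was sequenced. The labels give epithelial cells of the EAD, which could not be checked against marker genes, because the lists hold no expression values. A row is no more than a position in dm3, and an upstream row spans the 5 kb before a transcription start site. Names, strands, fold changes and P values are not in the rows, so whether these transcripts were higher or lower in rasV12scrib1 than in control was not analysed here, and no replicate error applies to positions.

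An intron is removed from the RNA precursor by splicing, and the first intron of a fly gene often carries enhancers that act on its own promoter. A transcript with no intron has no intronic DNA of its own, and it needs no splicing before export. Its non-coding sequence is the flanking DNA, above all the upstream region, and the untranslated part of the transcript. Introns of other transcripts can still lie around its start site. In flies, genes of this kind include the replication-dependent histones, *Hsp70* and other heat shock genes, the *achaete-scute* genes, which give cells neural identity, and many Notch targets of the *Enhancer of split* complex, which withhold it. Several of these families lie in tandem arrays. This is background on the class. No dm3 gene names or genome sequence entered this work. The positions below are therefore tied to none of these genes, and no sequence is shown.

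The pairing left nearly the same rows whichever way it was run. All 6232 introns found an upstream row, which fixes the number of rows left at 715. When the lists were read from the end, 713 of the 715 rows were left again. The 2 that changed were 13155528 to 13160527 on 2L and 8363041 to 8368040 on X, and 13142903 to 13147902 on 2L and 8383156 to 8388155 on X took their places. With a reach of 5 kb, 714 of the rows were kept, and with a reach of 50 kb all 715 were. Members were spread along the list, with 66 to 87 in each of 10 equal stretches. Most of the 691 regions stood in 1 member row (669), 20 stood in 2 and 2 stood in 3.

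Distances to the listed introns describe how the label came about. They are no test of it, because the rule itself used distances below 20 kb. Among the paired rows, the gap between start site and first intron had a median of 232 bp (quartiles 126 and 447 bp, range 4 to 12684 bp), and 5870 introns (94.2%) lay within 1 kb. Of the 715 member rows, 631 (88.3%) had no listed intron of any row within 1 kb downstream on either possible strand. That number was 449 (62.8%) within 5 kb, 181 (25.3%) within 20 kb and 54 (7.55%) within 50 kb. For the 181 rows, at 169 regions, position alone left the transcript without an intron. The other 534 member rows had an intron in reach that was paired with another row, and for them the label rests on the order of the lists.

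By first positions, the regions without an intron stood somewhat farther from their nearest listed region than the other regions did. The distance to the nearest other listed region, taken between the first positions of the regions, had a median of 3960 bp for the members (quartiles 1209.5 and 10395 bp, n = 691), against 2807.5 bp for the other regions (quartiles 644.5 and 9918.25 bp, n = 4234). The middle ranges of both groups overlap widely. The first position of another listed region lay within 500 bp of that of 107 members (15.5%), against 22.2% of the other regions. The difference was -6.69 percentage points, with a 95% Newcombe interval of -9.50 to -3.55. Within 1000 bp the shares were 23.3% for members (161 regions) and 30.3% for the other regions, a difference of -7.02 points (-10.3 to -3.45). Within 100 bp they were 7.67% and 9.28%, and the interval of that difference spanned 0 (-1.61 points, -3.59 to 0.769). A start site lies at the last position of its region on the plus strand and at the first on the minus strand. For most members the strand is unknown, so distances between start sites were not measured. Start sites on opposite strands can lie nearer or farther apart than the first positions of their regions. Without gene names, alternative starts of 1 gene and starts of neighboring genes cannot be told apart. These intervals treat regions as independent, although overlapping regions are not, and they describe the list only.

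**Figure D1:**
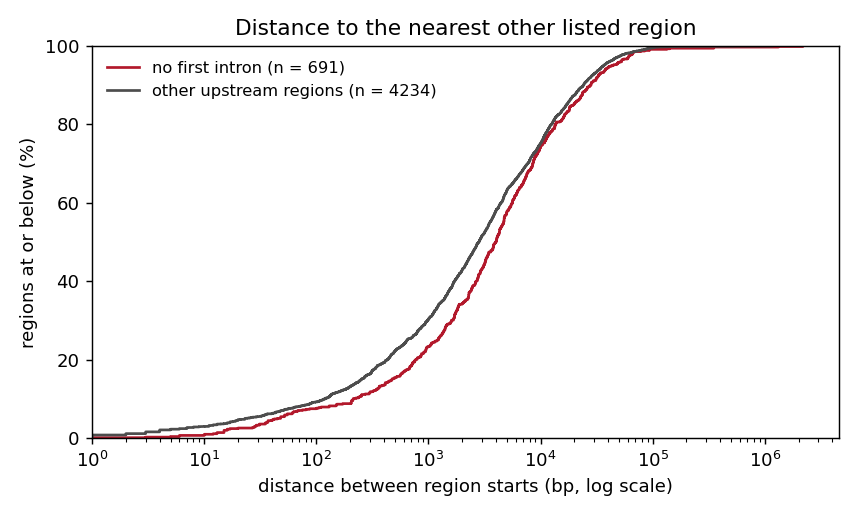
Share of upstream regions (%, y axis) whose nearest other listed region lies at or below a given distance (bp, logarithmic x axis), for regions without a first intron (red, n = 691) and the other listed regions (grey, n = 4234). Distances are between the first positions of regions. The red curve runs below the grey one up to several kb, and at 500 bp the shares are 15.5% and 22.2%.

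At the far end, 102 members (14.8%) had no other listed region within 20 kb by first positions, against 12.6% of the other regions. The members with the widest surroundings lay off the assembled arms. The region at 2393491 to 2398490 of 3LHet, which is heterochromatin of 3L, stood 2190.81 kb from the next listed region, and the one at 7084392 to 7089391 of U, the unplaced sequence of dm3, stood 1324.39 kb away. A further pair on U, at 5409324 to 5414323 and 5760004 to 5765003, were each other's nearest at 350.68 kb. Positions on U are pieces joined in no known order, so these distances are not distances in the genome. On an assembled arm, the most remote member lay at 18297518 to 18302517 on 3L, 141.895 kb from the next listed region.

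The 169 members with no intron in reach stood apart more often, as the rule of 20 kb makes likely, and their values are a description. Their nearest other listed region had a median distance of 19798 bp by first positions (quartiles 3183 and 37075 bp). Nothing listed overlapped 103 of them (60.9%), whereas 33 overlapped another member. They made up 30.9% of the members on X, 25.7% of those on 3R and between 20.3 and 22.6% of those on 3L, 2L and 2R. The intervals of X (22.6 to 40.7%) and 3L (14.7 to 27.3%) overlapped.

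Upstream regions of the members shared less sequence with other listed regions. Another upstream region overlapped 399 of the 691 members (57.7%, 54.0 to 61.4%), against 2674 of the 4235 other regions (63.1%, 61.7 to 64.6%), a difference of -5.40 points (-9.38 to -1.48). With at least 1000 bp shared the shares were 50.1% of members and 57.9% of the other regions, and with at least 2500 bp they were 38.9% and 47.6%. A listed first intron of some other transcript reached into 219 members (31.7%, 28.3 to 35.3%), against 1797 of the other regions (42.4%), a difference of -10.7 points (-14.4 to -6.88). Most of these overlaps were short. The stretch covered had a median of 265 bp among the overlapped members (quartiles 64 and 1281 bp), and 67 members (9.70%) shared at least 1000 bp with an intron, against 17.9% of the other regions. The start site of a listed transcript with an intron lay inside 199 members (28.8%), against 40.1% of the other regions (-11.3 points, -14.9 to -7.56). Only starts with an intron were counted in this last share. In none of these shares were alternative starts or introns of a region's own gene left out. The rule for members therefore enters all of these comparisons, and their values are a description.

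Neither list overlapped 272 members (39.4%, 35.8 to 43.1%), against 1390 of the other regions (32.8%), a difference of 6.54 points (2.69 to 10.5). Summed, the member regions held 3.455 Mb and covered 3.06 Mb of dm3. Of this, 2.08 Mb (67.9%) lay in no upstream region listed with an intron and in no listed first intron. Bases that several members share are included in that value and counted once. The other regions can overlap alternative starts and introns of their own gene, which a gene with a single unspliced transcript cannot do, so this comparison does not show that the genes themselves lie farther apart.

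**Figure D2:**
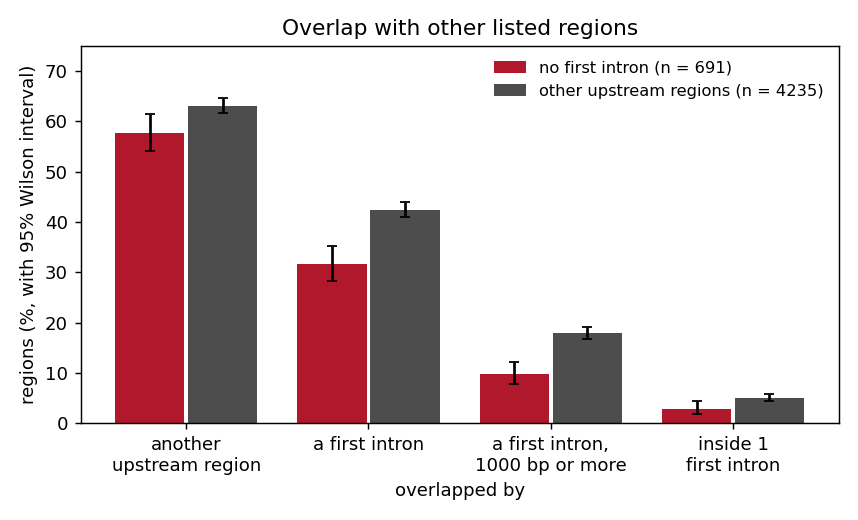
Share of upstream regions (%, y axis, bars start at 0) overlapped by another upstream region, by a first intron, by at least 1000 bp of a first intron, or lying wholly inside 1 first intron, for regions without a first intron (red, n = 691) and the other listed regions (grey, n = 4235). Error bars are 95% Wilson confidence intervals, and the red bar is the lower in each pair, from 57.7% against 63.1% to 2.89% against 5.03%. Starts and introns of a region's own gene were not left out, so the rule for members enters each pair.

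Some of the upstream regions lay wholly inside the first intron of another listed transcript. This held for 20 members (2.89%, 1.88 to 4.43%), against 213 of the other regions (5.03%), a difference of -2.14 points (-3.37 to -0.481). The 20 lay in 14 introns of 5275 to 106117 bp, with a median of 22822.5 bp. Not all lay far from the ends of the intron. The region at 18985917 to 18990916 on 3L nearly filled its intron of 5275 bp, with 0.091 kb and 0.184 kb to spare, and that at 22625235 to 22630234 on 3R began 0.032 kb inside its intron. The intron of 106.117 kb at 7643966 to 7750082 on 3L held 3 of them, at 7725088, 7735445 and 7742510, all toward its right end, 81.122 to 98.544 kb from its left one. The region at 7735445 was also listed in 2 rows. The intron of 57.449 kb at 3039036 to 3096484 on 2R held 2 members, at 3063832 and 3065503, near its middle. Single members lay in introns of 17170 bp (4574343 to 4591512 on 2L), 12018 bp (9521496 to 9533513 on 2L) and 12846 bp (8481574 to 8494419 on 2R). A nested gene and a later start site of the host gene cannot be told apart without gene names.

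Of these 20 nested members, 13 lay on 3L, in 8 of the 14 introns. That was 8.50% of the 153 members on 3L (5.03 to 14.0%), against 7 of the 538 members elsewhere (1.30%, 0.632 to 2.66%). The difference was 7.20 points (3.47 to 12.7). The other regions had no such lean, with 5.06% on 3L and 5.02% elsewhere, a difference of 0.0352 points (-1.46 to 1.84). Against the other regions of the same arm, nested members were fewer on 3R and on X. On 3R they were 1 of 171 members (0.585% against 4.73%, -4.15 points, -5.73 to -1.25). On X they were 1 of 97 (1.03% against 7.53%, -6.50 points, -8.91 to -1.59). On 3L itself the interval spanned 0 (3.44 points, -0.404 to 9.08), as it did on 2L and 2R. The arm was singled out after its values were seen, and members that share an intron are not independent. Other regions can also lie inside a first intron of their own gene, which a gene with a single unspliced transcript cannot do. The rule for members therefore enters the comparisons with the other regions of an arm.

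A start site could also be listed both with and without an intron. This was so for 27 of the 691 members (3.91%, 2.70 to 5.63%), where 27 rows had no intron and 33 had one. The introns at these starts give the strand, which was plus for 12 and minus for 15. They were short. The 32 distinct introns had a median of 88.5 bp (quartiles 65.5 and 185.5 bp, range 49 to 1202 bp), against 454 bp for the 4717 introns at all other starts (quartiles 70 and 2268 bp). At the shared starts 18 introns (56.2%, 39.3 to 71.8%) were 100 bp or shorter, against 32.8% at other starts, a difference of 23.5 points (6.48 to 39.1). An intron of 1 kb or more was found once (3.12%), against 37.7% at other starts, a difference of -34.5 points (-37.5 to -21.8).

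Short introns at such starts are also what the annotation holds. In the BDGP6.54 annotation of Ensembl release 115, a later build used here for lengths and shares only, first introns at protein-coding starts that also have a single-exon transcript had a median of 74 bp (192 introns), against 256 bp at other starts (19159 introns). Of these annotated introns 70.3% were 100 bp or shorter, against 38.2% at other starts. Among the listed ones, the start on the minus strand of 3R with its region at 15760843 to 15765842 had an intron of 90 bp that lay 2232 bp inside the transcript. The start on the plus strand of 3R with its region at 21439137 to 21444136 had introns of 64 and 67 bp, 1567 bp away. At the long end stood the region at 479689 to 484688 on 2L, minus strand, with introns of 882 and 1202 bp. The shortest intron, 49 bp, belonged to the region at 12091526 to 12096525 on 2L, plus strand. These examples were chosen after their values were seen.

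**Figure D3:**
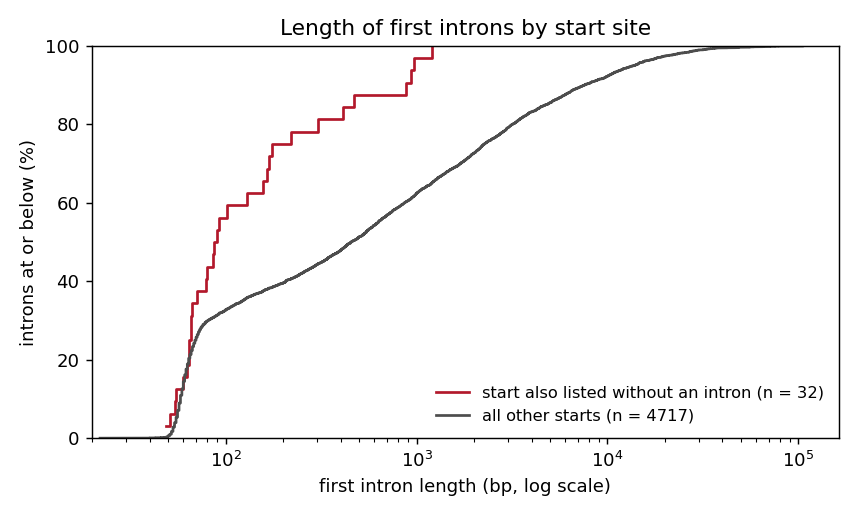
Share of distinct first introns (%, y axis) at or below a given length (bp, logarithmic x axis) at start sites that are also listed without an intron (red, n = 32) and at all other listed start sites (grey, n = 4717). The red curve climbs at shorter lengths, with medians of 88.5 bp and 454 bp.

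No chromosome arm held a share of the members that differed from its share of the other regions beyond the interval. The arm 2L held 116 members (16.8%, against 19.1% of the other regions), 2R held 146 (21.1% against 20.0%), 3L 153 (22.1% against 20.5%), 3R 171 (24.7% against 23.4%), X 97 (14.0% against 15.7%) and chromosome 4 held 3 (0.434% against 0.826%). All 6 intervals of the difference spanned 0. They reached from -5.14 to 0.917 points on 2L and from -2.04 to 4.88 points on 3R, the arm that was made homozygous in the clones of both groups. The remaining 5 members lay off the arms, 3 on U and 1 each on 2LHet and 3LHet.

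Over the annotation, 13.1% of 19295 distinct protein-coding start sites had a single-exon transcript, against which the 14.0% of the listed regions can be set with the limit that dm3 and the later build list different transcripts. Over all annotated genes, coding or not, the share was 39.8% of 29656 starts. The lists do not state which kinds of gene they hold, so the choice of the protein-coding share is an assumption. On 2R, 3L, 3R and X the members made up 12.7 to 15.0% of the listed regions, and the annotated protein-coding shares were 11.8 to 13.7%. On 2L the order was the other way round. Members were 12.6% of the listed regions there (10.6 to 14.9%), against 16.2% of the annotated protein-coding starts. Histones account for part of this annotated share, since 111 single-exon starts on 2L belong to the histone cluster, and without them it was 13.5%, which lies within the interval of the list. Over all arms the annotated protein-coding share without them was 12.6%, which lies below the interval of the list (13.1 to 15.0%). Histone genes could not be taken out of the list, which names no gene, so these values do not compare like with like. This step was added after the shares were seen.

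**Figure D4:**
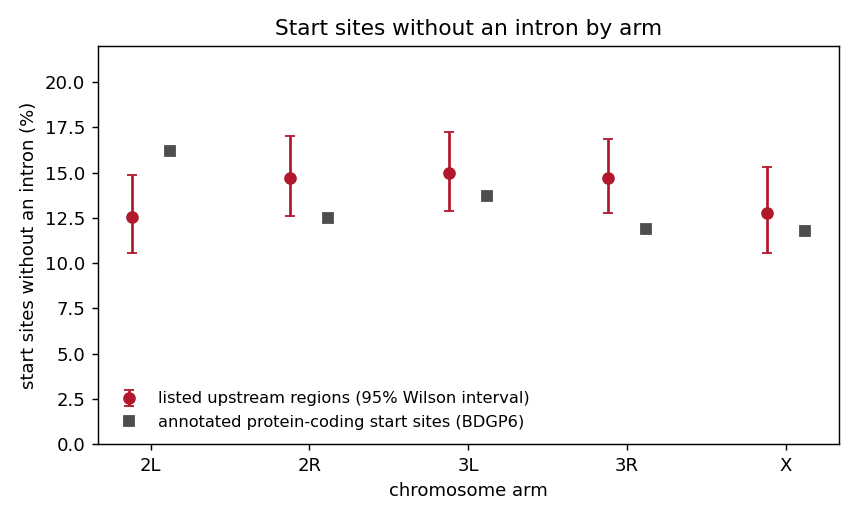
Share of listed upstream regions without a first intron on each chromosome arm (red circles, %, y axis, with 95% Wilson confidence intervals) beside the share of annotated protein-coding start sites with a single-exon transcript in the later build (grey squares). On 2L the listed share is the lower one and its interval ends below the annotated share (12.6% against 16.2%), on 2R and 3R the interval lies above the annotated share, and on 3L and X it includes it.

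Most start sites without an intron had no other member nearby, but some formed dense rows. When members less than 10 kb apart were linked, 408 regions (59.0%) had no partner, 134 formed 67 pairs, and 149 (21.6%) fell into 38 clusters of 3 or more. The same linking among the other 4235 regions put 61.7% of them into clusters of 3 or more. With far more regions to link, that share is not comparable in size, and clusters are not particular to the members. Of these clusters 24 held 3 regions, 5 held 4, 4 held 5, 2 held 6, 2 held 7 and 1 held 11. The clusters lay on 3R (13), 3L (10), 2R (7), 2L (5) and X (3). No upstream region of a transcript with an intron overlapped 15 of them. The step between first positions of regions was small in some, with all first positions within 500 bp in 6 clusters. Those may be alternative starts of 1 gene. Counting regions with first positions within 500 bp once left 29 clusters.

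The cluster with the most members lay at 21818344 to 21865977 on 3R. Its 11 regions ran over 47.634 kb, with steps of 130 to 11042 bp between first positions (median 2760 bp). A single upstream region of a transcript with an intron and a single first intron overlapped it. None of the other clusters held more than 7 members.

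On 2R, 3 of the 5 largest clusters had short steps and were overlapped by few listed regions with an intron. The one at 4248523 to 4262543 packed 7 regions into 14.021 kb, with steps of 587 to 2855 bp (median 1203 bp). The cluster at 7126500 to 7142674 held 7 regions in 16.175 kb, with steps of 296 to 5575 bp (median 1235.5 bp), and that at 14280899 to 14294425 held 6 in 13.527 kb, with steps of 792 to 4081 bp (median 1354 bp). In each of the 3, 1 upstream region with an intron and 1 first intron overlapped. Apart from the step of 5575 bp, the steps are shorter than the 5 kb of an upstream region, so neighboring regions overlapped there.

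The remaining large cluster, at 13228599 to 13252924 on 3R, was mixed. Its 6 regions spanned 24.326 kb, with a median step of 3700 bp, and 6 upstream regions and 7 first introns of other listed transcripts overlapped it. In none of the 5 largest clusters was a member also listed with an intron or without any intron in reach, so each of their members had an intron within 20 kb that was paired with another row. Outside the 5, the cluster of 4 at 3130720 to 3143534 on X had no intron in reach of any member, and the cluster of 5 at 8193791 to 8204261 on 3R overlapped nothing listed with an intron. A pair of members that shared their start with a spliced transcript, at 10684408 and 10698025 on 2L, stood in 1 cluster of 5.

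**Figure D5:**
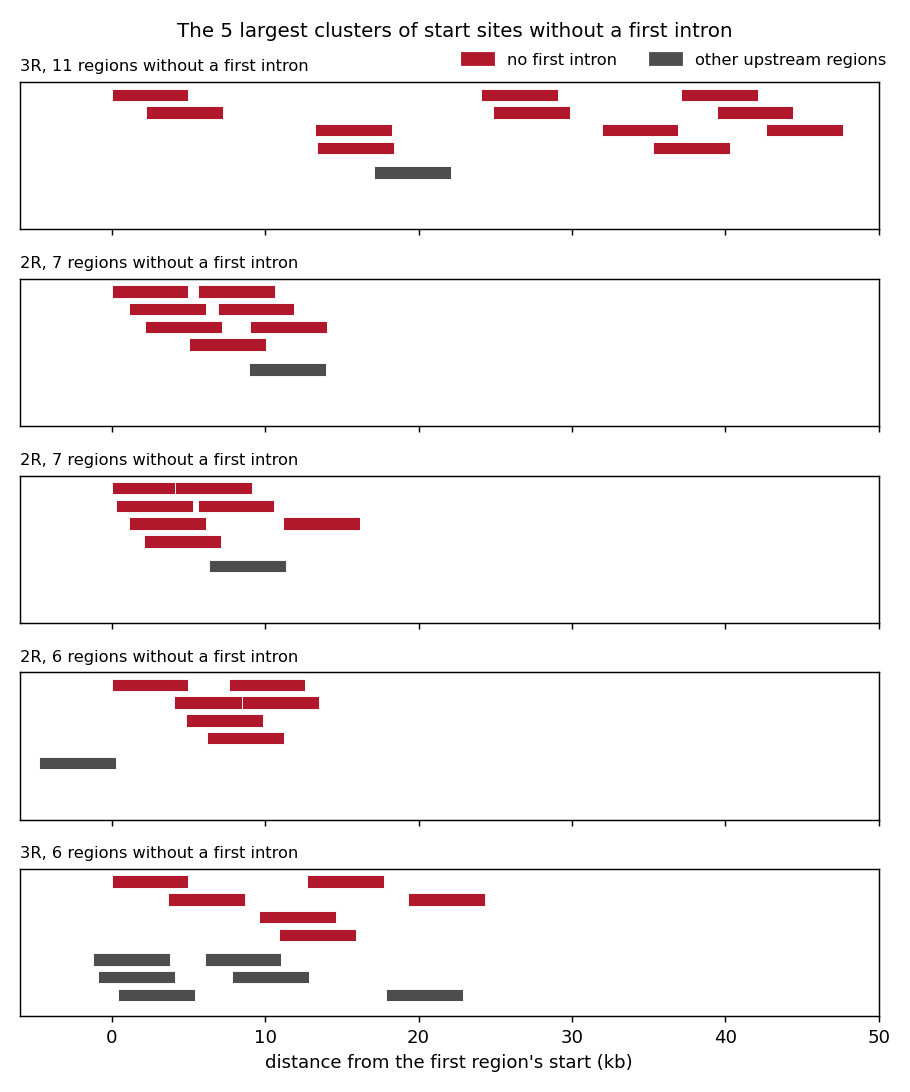
Maps of the 5 clusters with the most start sites without a first intron, each panel to the same scale, with the distance from the start of the first region in kb on the x axis. Bars are upstream regions of 5 kb, red for regions without a first intron and grey for other listed regions that overlap the cluster, stacked only to keep them apart. The upper panel holds 11 red regions and 1 grey one, and the lowest panel holds 6 of each.

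A few regions were listed in more than 1 row without an intron. The region at 15324793 to 15329792 on 3L stood in 3 rows, with the next listed region 31.231 kb away by first positions. The region at 24410835 to 24415834 on 3R also stood in 3 rows, and its neighbor 4064 bp away, at 24406771, stood in 2. Among the regions in 2 rows, those at 6673348 to 6678347 and 8820626 to 8825625 on 2L stood 16.046 and 65.864 kb from the next region. The region at 5960341 to 5965340 on 2L had a neighbor 1709 bp away and an intron of 322 bp wholly inside it. None of these 5 regions was listed with an intron in any row. How the rows at 1 start site differ from each other is not shown by the lists.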

How the data were processed

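Total RNA of mosaic EAD was sequenced. Per the submitters' processing notes, CASAVA, TopHat2 2.0.10 and Cufflinks 2.1.1 were used on BDGP5 (dm3). The deposited values are other than counts: genome positions of upstream regions and first introns, which the authors exported for regulated genes and scanned for motifs. The paper ties the scanned regions to all its differentially expressed genes, but its methods name stricter cut-offs for exported gene lists, so the cut-offs behind these lists were not settled, and depth and precision per sample were not analysed here. No per-sample column was left out.

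Both lists were read as deposited and paired in order (window 60 rows, reach 20 kb). Positions count from 1. Distinct regions were compared as shares with 95% Wilson intervals and differences with 95% Newcombe intervals. No P value was computed, since regions are not replicates. Regions were named by position, because the lists hold no gene names: the 5 clusters with most members, the 5 regions in most rows, the 5 farthest from another listed region and the 5 covered longest by first introns, with ties in order of position. Members and rules were chosen with earlier results of these data known. Alternatives were the reach, the pairing window and direction, the shared length, the linking distance, and the exclusion of members with an intron in reach or also listed with an intron. Pairing, coverage, linking and intervals were tested on made-up data. For the pairing, rows were placed at random positions. Rows that compete for the same intron were therefore rare there, and that case was hardly tested. Scripts ran in Python 3.11.15 with scipy 1.17.1, numpy 2.4.6 and, for figures, matplotlib 3.10.9.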

Additional observations from a re-analysis of the deposited data

How the results depend on the processing

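No paired analysis was possible because the lists hold positions, not measurements of samples. Replicates could not be left out for the same reason. Of 39 alternative values, 5 were the number of rows without an intron under another reach, window or direction, which the pairing of every intron fixes. Of the other 34, 23 lay within 1.5 times the count reported or within the 95% Wilson interval of the share reported, which is wide for small shares, and 11 lay outside. The number of members with no listed intron within reach, 181 at 20 kb, was 449 at 5 kb and 54 at 50 kb, since a longer reach meets more introns by construction. The share of members that another upstream region overlaps, 57.7%, was 50.1% with at least 1000 bp shared, 38.9% with at least 2500 bp and 34.9% among the members with no intron in reach. The share that a first intron overlaps, 31.7%, was 9.70%, 5.79% and 23.7% under the same settings. Among the members with no intron in reach, 3L held 18.3% in place of 22.1% and X held 17.8% in place of 14.0%, and 7 clusters of 3 or more remained of regions of this kind, against 38. Fewer regions entered these values (169 of 691). Whether that accounts for the smaller number of clusters was not tested. The clusters numbered 33 with a linking distance of 5 kb and 43 with 20 kb. They numbered 29 with first positions within 500 bp counted once, a setting chosen after seeing the data. Neither strand nor gene is known for most members, which limits every comparison of neighbors.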

Other observations

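In windows of 1 Mb along 2L, 2R, 3L, 3R and X, the number of start sites without an intron had a median of 5 (quartiles 3 and 8, 121 windows), and 6 windows held none. The window from 14 to 15 Mb on 2R held the most, 16 of its 43 listed regions (37.2%), among them the cluster of 6 at 14280899 to 14294425. The window from 4 to 5 Mb on 2R held 15 of 59, those from 1 to 2 Mb on 3L and from 21 to 22 Mb on 3R held 14 of 58 and 14 of 51, and 5 windows held 13, namely the first of 2L (of 53 listed), 7 to 8 Mb on 2R (of 65), 9 to 10 Mb (of 64) and 21 to 22 Mb (of 88) on 3L, and 18 to 19 Mb on 3R (of 59). The window from 22 to 23 Mb on 3L held 10 of 20. These windows were picked for their counts, and no test was made.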
